A study of Mus musculus with 12 samples.

Results

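Podocytes are the epithelial cells that wrap the glomerular capillaries of the kidney. Their interlocking foot processes are bridged by the slit diaphragm, a cell junction that, with the basement membrane and the fenestrated endothelium, filters plasma. Loss of podocyte proteins such as nephrin leads to protein in the urine. The 7 genes described here encode parts of this cell: Nphs1 and Magi2 of the slit diaphragm, Podxl and Ptpro of the apical surface, Synpo of the actin cytoskeleton, and Wt1 and Cdkn1c of the nucleus. They were found by gene symbol among the 52636 genes of the deposited table. Each symbol matched 1 gene, and all 7 passed the minimum for testing, which asked 3 or more of the 12 libraries to reach an FPKM of 1 (fragment count scaled to gene length and library total).

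RNA was taken from the kidney of male wild-type C57BL/6 mice aged 8 weeks. There were 4 groups of 3 libraries: control (corn oil and saline), PCN (pregnenolone carbonitrile at 40 mg/kg by gavage each day, and saline), cisplatin (corn oil, and cisplatin at 20 mg/kg into the peritoneum once), and cisplatin+PCN (both drugs). PCN activates the rodent pregnane X receptor, and cisplatin is a platinum drug that injures renal tubules. Gavage ran for 4 days before cisplatin and for 3 days after it, and kidneys were collected 4 days after cisplatin. Each group held 6 to 8 mice; no source states that the 3 libraries came from separate mice, and the tests rest on library-to-library spread alone, technical or not. The treatment text lists the cisplatin group both as pretreated with PCN and as given oil, and the groups follow the library titles. Part of the kidney and strand of counting are not given in the sources used here.

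Each library held from 18914607 to 26530485 reads assigned to genes, recovered from the FPKM. At an FPKM of 1 there were 18.7 to 27.2 reads per kilobase of gene. A defining marker of kidney tubules, Umod, stood at 1273 ± 145 FPKM in control (SD, n = 3), and all 7 podocyte genes were detected in every library. In cisplatin libraries all 12 proximal tubule markers fell (median change -3.05 in log2(FPKM + 1)), where 31.9% of all tested genes fell. In tissue of mixed cells, fewer cells of a type and less RNA per cell cannot be told apart.

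With cisplatin alone the podocyte genes split. Synpo and Wt1 rose 1.56-fold and 1.78-fold in mean FPKM, Magi2, Ptpro and Cdkn1c fell to 0.335, 0.504 and 0.592 of their control means, and Podxl fell by a smaller amount, to 0.847. Nphs1, at 0.824 of its control mean, did not pass the test. Of the 7 genes 2 rose and 4 fell (limma, adjusted p under 0.05), where 32% of all 13540 tested genes rose and 31.9% fell. The median change of the 7 was -0.23 in log2(FPKM + 1), against 0.01 over all tested genes. Magi2 reached the minimum for testing only in libraries without cisplatin, which favoured a fall. Of the other 6 genes 2 rose and 3 fell (median -0.22). The cisplatin and control libraries did not overlap in 5 of the 7, a share close to the 67.7% of all tested genes. In size, 28.8% of tested genes changed at least as much as Cdkn1c and 69.5% at least as much as Nphs1. With 7 genes, these counts do not set the podocyte genes apart from the rest of the table.

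**Figure D1:**
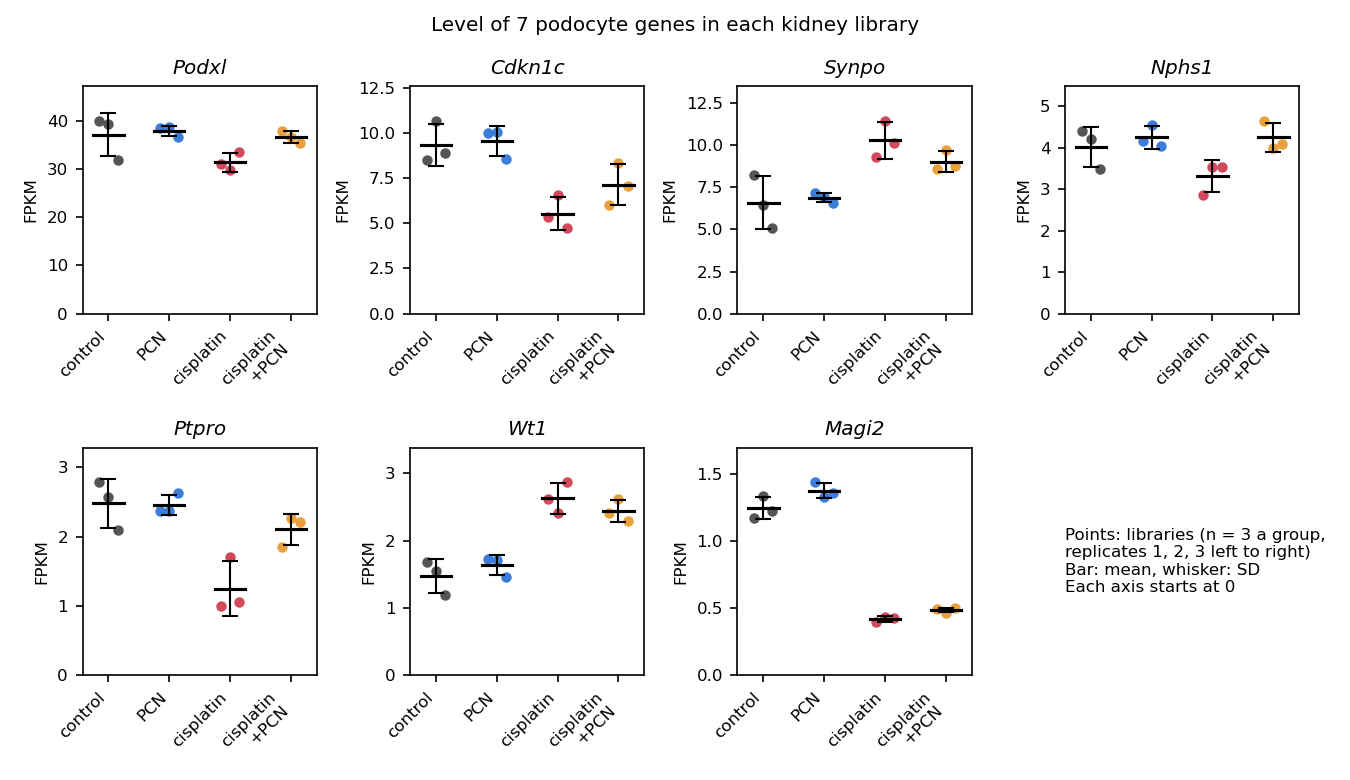
FPKM of each podocyte gene (vertical axes, from 0) in the 12 libraries by group (horizontal axes), with the mean and SD of 3 libraries. Magi2 lies below 0.5 FPKM in all 6 libraries with cisplatin and at 1.17 or more in the other 6, while Synpo and Wt1 are higher with cisplatin.

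Levels per kilobase set the genes in a clear order in control. Podxl made up 59.5 ± 0.377% of the summed FPKM of the 7 (SD, n = 3), followed by Cdkn1c at 15.1 ± 2.11%, Synpo at 10.51 ± 1.56%, Nphs1 at 6.48 ± 0.117%, Ptpro at 3.98 ± 0.170%, Wt1 at 2.36 ± 0.157% and Magi2 at 2.02 ± 0.261%. Neighbours in this order did not overlap in FPKM in control, except Wt1 and Magi2. In cisplatin libraries Synpo (18.7 ± 1.56%) stood above Cdkn1c (10.1 ± 1.65%), and Wt1 (4.80 ± 0.427%) above Ptpro (2.28 ± 0.671%), again without overlap between neighbours. Magi2 was then at 0.762 ± 0.0162%. The same order held in cisplatin+PCN libraries.

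The slit diaphragm genes were Nphs1 and Magi2. Nphs1 (ENSMUSG00000006649, GRCm38 chromosome 7, from 30458315 to 30487223, plus strand) encodes nephrin, the adhesion protein that spans the slit. It stood at 4.40, 4.20 and 3.49 FPKM in control replicates 1, 2 and 3, and at 4.16, 4.55 and 4.04 with PCN. With cisplatin the values were 2.87, 3.54 and 3.54 FPKM, and with cisplatin+PCN 4.65, 3.99 and 4.10 FPKM. The cisplatin libraries were low as a group but overlapped the lowest control. The difference between cisplatin and control was -0.22 ± 0.09 (log2(FPKM + 1), SE; limma adjusted p = 0.0587). It passed when control replicate 3 (adjusted p = 0.01998) or cisplatin replicate 2 (0.0495) was left out. The unadjusted 95% interval of the difference ran from -0.42 to -0.01. Genes that overlap Nphs1 in the table, the pseudogene Rps12-ps4 and the antisense gene Nphs1os, held at most 28 and 2 reads per library, against 366 to 774 for Nphs1.

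Magi2 (ENSMUSG00000040003, chromosome 5, from 19227036 to 20704792, plus strand) encodes a scaffold protein with guanylate kinase, WW and PDZ domains that binds nephrin at the slit. Its 3 control libraries read 1.17, 1.34 and 1.23 FPKM, and its PCN libraries 1.44, 1.33 and 1.36. The cisplatin libraries read 0.394, 0.435 and 0.424 FPKM, and the cisplatin+PCN libraries 0.494, 0.467 and 0.498. All 6 libraries with cisplatin lay below all 6 without it. Behind these values were 249 to 346 reads in control and 86 to 131 in cisplatin libraries. Magi2 fell with cisplatin by 0.66 ± 0.07 (log2(FPKM + 1), limma adjusted p = 1.95e-05), a scale that understates the 2.99-fold difference of the means because the gene is low. It passed the minimum for testing only through control and PCN libraries, so a fall was favoured by that filter; without a filter the change had the same sign and passed. The 8 genes listed inside its span held at most 5 reads each in any library.

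The apical surface genes were Podxl and Ptpro. Podxl (ENSMUSG00000025608, chromosome 6, from 31519488 to 31563981, minus strand) encodes podocalyxin, a negatively charged sialomucin that keeps foot processes apart and that vascular endothelium also carries. Its values were 40.0, 39.2 and 31.9 FPKM in control, 38.4, 38.6 and 36.6 with PCN, 31.0, 29.7 and 33.4 with cisplatin, and 37.9, 36.6 and 35.3 with cisplatin+PCN. Control replicate 3 lay within the cisplatin range and the other 2 controls above it. Podxl fell with cisplatin by 0.23 ± 0.09 (limma adjusted p = 0.0373). The call was lost in 12 of 24 alternative analyses, among them without control replicate 1 (0.139) or 2 (0.129), PCN replicate 1 (0.0508) or 2 (0.0510), or cisplatin replicate 1 (0.0850) or 2 (0.105), with only the compared groups fitted (0.0944), and in limma-voom on recovered reads (0.169). The summed FPKM of 16 endothelial markers ran from 197 to 224 in control and from 187 to 214 in cisplatin libraries. Of the 15 tested, 4 rose, among them Flt1 (0.82), and 6 fell, among them Sox18 (-1.11), Tek (-0.86) and Ehd3 (-0.81), with 0 markers at 0 in all libraries of a group. Over all tested genes 32% rose and 31.9% fell. The part of endothelium in the Podxl values was not tested.

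Ptpro (ENSMUSG00000030223, chromosome 6, from 137252319 to 137463233, plus strand) encodes a receptor-type tyrosine phosphatase, known in podocytes as GLEPP1. It stood at 2.78, 2.56 and 2.09 FPKM in control and at 2.37, 2.37 and 2.63 with PCN. The cisplatin libraries read 0.997, 1.70 and 1.05 FPKM, the second well above the other two. With cisplatin+PCN the values were 1.85, 2.26 and 2.20 FPKM, all above the cisplatin libraries. Ptpro fell with cisplatin by 0.64 ± 0.12 (limma adjusted p = 0.000878), with no overlap with control, and it passed without each single library in turn.

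Promoter windows, from 250 bases before to 50 after a RefSeq transcription start, were on hand for 3 of the 7 genes (GRCm38.p6, all on the plus strand), Magi2, Ptpro and Nphs1. Podxl, Synpo, Wt1 and Cdkn1c had no entry. They are shown because Magi2 and Ptpro had the steepest falls in mean FPKM, Nphs1 did not pass, and Magi2 has 2 starts, which a count per gene adds together. Capitals mark matches on either strand to GCGTGGG (a core shared by WT1 and EGR factors), GGGCGG (the GC box) and TGTTCT (a hexamer of the glucocorticoid receptor site), of which each window held 1 in all. Their places are chr5:19226796-19227095 and chr5:19907268-19907567 for Magi2, chr6:137252049-137252348 for Ptpro and chr7:30459808-30460107 for Nphs1, the last of which lies inside the gene span of the table.
Magi2, upstream start: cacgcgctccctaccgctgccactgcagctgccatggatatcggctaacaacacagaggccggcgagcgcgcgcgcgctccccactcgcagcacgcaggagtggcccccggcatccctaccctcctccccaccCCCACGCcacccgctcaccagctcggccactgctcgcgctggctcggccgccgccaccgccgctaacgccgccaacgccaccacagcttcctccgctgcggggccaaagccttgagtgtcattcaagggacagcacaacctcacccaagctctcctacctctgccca
Magi2, internal start: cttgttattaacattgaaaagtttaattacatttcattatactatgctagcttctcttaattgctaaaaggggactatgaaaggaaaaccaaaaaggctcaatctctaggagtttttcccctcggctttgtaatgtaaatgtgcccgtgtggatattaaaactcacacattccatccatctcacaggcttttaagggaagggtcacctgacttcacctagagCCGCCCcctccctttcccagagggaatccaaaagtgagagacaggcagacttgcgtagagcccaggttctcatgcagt
Ptpro: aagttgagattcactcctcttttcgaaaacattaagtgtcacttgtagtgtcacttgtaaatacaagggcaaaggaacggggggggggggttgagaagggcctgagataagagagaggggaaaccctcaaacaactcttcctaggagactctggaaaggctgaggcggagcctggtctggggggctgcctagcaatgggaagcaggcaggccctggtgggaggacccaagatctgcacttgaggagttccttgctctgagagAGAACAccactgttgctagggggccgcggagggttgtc
Nphs1: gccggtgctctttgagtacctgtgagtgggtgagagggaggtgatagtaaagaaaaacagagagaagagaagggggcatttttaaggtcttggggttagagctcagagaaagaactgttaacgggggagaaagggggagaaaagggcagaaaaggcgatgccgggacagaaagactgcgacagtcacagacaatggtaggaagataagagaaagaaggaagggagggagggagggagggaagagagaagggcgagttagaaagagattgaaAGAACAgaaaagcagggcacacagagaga
The upstream window of Magi2 is 69.3% G and C and holds the WT1/EGR core, as do 5.04% of all 32851 windows of 300 bases. The internal window is 43% G and C and holds a GC box, found in 35.7% of windows. Ptpro (54.7% G and C) and Nphs1 (49.7%) each hold the receptor hexamer, found in 19% of windows. The median window was 52.7% G and C. These letters are matches in a window and show no binding.

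The cytoskeletal gene was Synpo (ENSMUSG00000043079, chromosome 18, from 60593973 to 60660142, minus strand), which encodes synaptopodin, an actin-associated protein of foot processes and of dendritic spines. Its control libraries spread widely, at 8.20, 6.45 and 5.09 FPKM, and the PCN libraries lay within that range at 7.13, 6.94 and 6.58. With cisplatin the values were 9.27, 11.4 and 10.1 FPKM, and with cisplatin+PCN 8.55, 9.72 and 8.76. All 6 libraries with cisplatin were above all 6 without. Synpo rose with cisplatin by 0.59 ± 0.13 (limma adjusted p = 0.00214), in each of the 24 alternative analyses.

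The nuclear genes went in opposite directions. Wt1 (ENSMUSG00000016458, chromosome 2, from 105126529 to 105173616, plus strand) encodes a zinc finger transcription factor that podocytes need throughout life and that mesothelium also expresses. It stood at 1.68, 1.55 and 1.19 FPKM in control, at 1.72, 1.72 and 1.46 with PCN, at 2.62, 2.40 and 2.87 with cisplatin, and at 2.41, 2.62 and 2.30 with cisplatin+PCN. Again every library with cisplatin exceeded every library without it. Wt1 rose with cisplatin by 0.56 ± 0.09 (limma adjusted p = 0.000309). The summed FPKM of 8 mesothelial markers was 22.7 to 29.1 in control and 42.8 to 46.6 in cisplatin libraries. The highest of them were the keratin genes Krt7 (15.4 FPKM in control and 20.8 with cisplatin) and Krt19 (4.12 and 16.4). Together these keratin genes made up most of that sum in both groups. Of the 5 tested, Krt19 (1.78), Msln (0.77) and Krt7 (0.40) rose, though Msln reached the minimum for testing only in libraries with cisplatin, which favoured a rise. Upk3b stood at 2.29 ± 0.663 and 1.99 FPKM in the 2 groups, and Upk1b at 3.63 ± 1.34 and 4.06, without a call. The mesothelial genes Lrrn4, Bnc1 and Muc16 reached at most 0.0750, 0.0112 and 0.00197 FPKM in any library. Of 10 tested markers of the parietal epithelium of Bowman's capsule 9 rose and 1 fell (median 1.45). Over all tested genes 32% rose and 31.9% fell. Cd44, among the 9, reached that minimum only with cisplatin, and without it 8 of 9 rose (median 1.28). The sum of the 11 listed went from between 131 and 146 to between 417 and 492 FPKM. Several markers of the mesothelial and parietal lists, such as Krt19, Krt8 and Cd44, are also genes of injured tubules. The part of these cells in the Wt1 and Synpo values was not tested.

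Cdkn1c (ENSMUSG00000037664, chromosome 7, from 143458339 to 143461050, minus strand) encodes p57, a cyclin-dependent kinase inhibitor of mature podocytes and an imprinted gene expressed from the maternal copy. Control libraries read 8.47, 10.7 and 8.90 FPKM and PCN libraries 9.97, 10.04 and 8.58. Values with cisplatin were lower, at 5.32, 6.54 and 4.73 FPKM, and those with cisplatin+PCN, at 6.03, 8.30 and 7.07, lay below all controls and overlapped the cisplatin range at their lowest. Cdkn1c fell with cisplatin by 0.67 ± 0.13 (limma adjusted p = 0.000981), without overlap with control. Its relatives did not follow it. Cdkn1a (p21) rose by 6.66, Cdkn2b by 0.91 and Cdkn2d by 0.51, and Cdkn1b (p27) stood at 11.5 ± 1.30 and 14.4 ± 2.45 FPKM (limma adjusted p = 0.0598). Of 5 tested relatives 0 fell, where 31.9% of all tested genes did. Of 6 tested genes near Cdkn1c or in its imprinted domain 1 rose and 1 fell, where 32% of all tested genes rose and 31.9% fell. The transporter gene Slc22a18 fell by 2.35 and Cd81 rose by 0.53. Phlda2, a maternally expressed neighbour, stood at 13.4 ± 0.777 and 10.1 FPKM (adjusted p = 0.0550). Kcnq1ot1, the noncoding RNA of the domain, did not exceed 0.0694 FPKM.

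Structural relatives of the other genes gave further contrasts with cisplatin. Kirrel, which encodes the nephrin partner NEPH1, rose by 0.55, from 2.29 ± 0.411 to 3.80 FPKM. Magi1 fell by 0.46 and Magi3 stood at 3.90 ± 0.148 and 4.28 FPKM (adjusted p = 0.129). The endothelial sialomucin gene Cd34, a relative of Podxl, stood at 4.14 ± 0.176 and 3.43 FPKM (adjusted p = 0.0552). Ptprj, of the same phosphatase class as Ptpro, rose by 0.72, and the zinc finger gene Egr1 by 3.55.

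Ratios within a library are free of its overall scale, and Nphs1 served as the common denominator. Podxl over Nphs1 was 9.19 ± 0.130 in control and 9.53 ± 1.20 in cisplatin libraries, with overlapping ranges (SD, n = 3). Wt1 over Nphs1 was 0.364 ± 0.0207 and 0.800 ± 0.116, and Synpo over Nphs1 1.62 ± 0.214 and 3.10 ± 0.217. Magi2 over Nphs1 was 0.312 ± 0.0434 and 0.127 ± 0.00928, and Ptpro over Nphs1 0.614 ± 0.0169 and 0.375 ± 0.0947. Cdkn1c over Nphs1 was 2.34 ± 0.360 and 1.68 ± 0.297. The 2 groups did not overlap in any of these ratios except that of Podxl. The share of all tested genes without overlap in such a ratio was not computed, and in FPKM it was 67.7%. Wt1 over Magi2 had the widest gap, at 1.19 ± 0.234 in control, 1.19 ± 0.107 with PCN, 6.31 ± 0.684 with cisplatin and 5.03 ± 0.522 with cisplatin+PCN. These are descriptions, since 3 against 3 libraries cannot give an exact permutation p under 0.1.

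**Figure D2:**
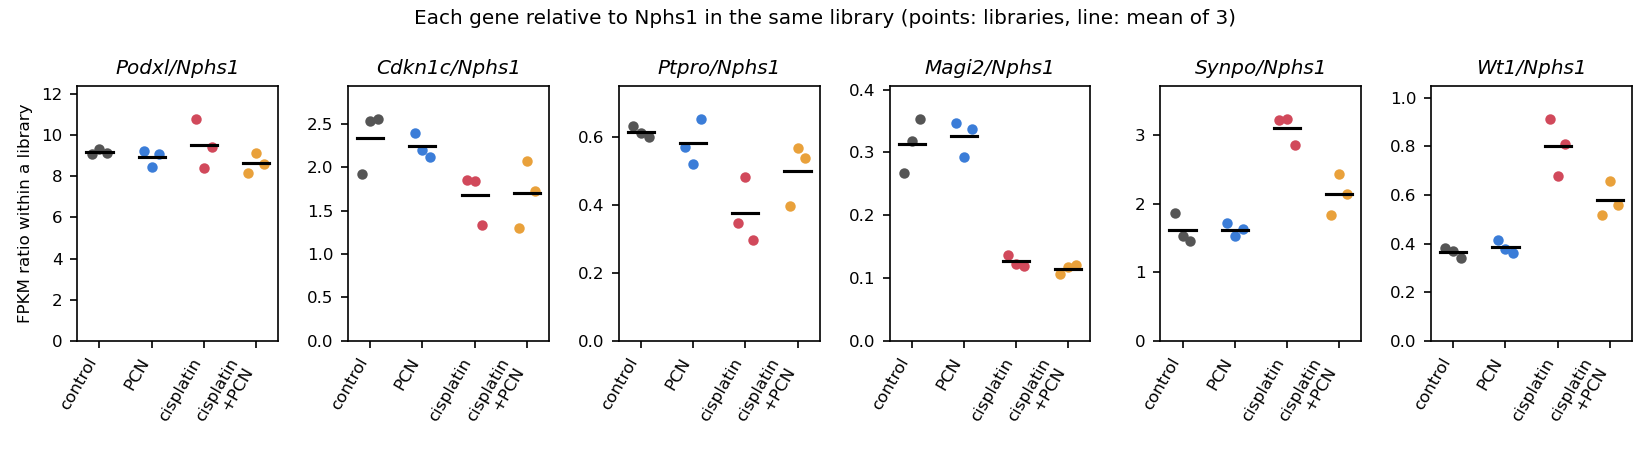
FPKM of 6 podocyte genes divided by that of Nphs1 in the same library (vertical axes, from 0, no unit), by group, with the mean of 3 libraries as a line. Podxl keeps a ratio near 9 in every group, whereas Magi2 drops from 0.312 to 0.127 and Wt1 goes from 0.364 to 0.800 between control and cisplatin.

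Other podocyte genes, listed from textbook knowledge but with earlier results of these data known, also split with cisplatin. Of all tested genes 32% rose and 31.9% fell. Of 13 tested genes of the slit diaphragm and its adaptors 8 rose and 2 fell (median 0.47), with the largest changes in the adaptor genes Cd2ap (1.07), Nck2 (0.65) and Mpp5 (-0.62) and in Fat1 (0.89), a large protocadherin of the slit. Many of these are also expressed in tubules. Of 16 tested cytoskeletal genes 9 rose and 4 fell (median 0.46). Among them, Arhgap24, a Rac inhibitor, fell by 1.57 and Inf2, a formin, rose by 1.38, with Slc9a3r2 at -1.12 and Ezr at 0.94. Of 10 tested transcription factors and cell-state genes 3 rose and 4 fell (median -0.05), with Sox4 at 2.07, Tcf21 at -0.82, Zhx2 at -0.73 and Pax2 at -0.47.

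Of 15 basement membrane and adhesion genes 9 rose and 3 fell (median 0.47), where 32% of all tested genes rose and 31.9% fell. The laminin and integrin genes Lama5 (1.54) and Itga3 (1.25) and the tetraspanin gene Cd151 (1.11) rose, as did Nid1 (1.03). Col4a3 and Col4a4, collagen chains of the mature glomerular membrane, fell by 0.74 and 0.86. Col4a5, another collagen chain of that membrane, stood at 8.455 ± 0.696 and 8.085 FPKM without a call (limma adjusted p = 0.688). Of 20 tested surface and secreted products 12 fell and 4 rose (median -0.55), Clic3 (-1.54), Mme (-1.25) and Vegfa (-1.19) lower and the plasminogen activator gene Plat (1.83) higher. Mme, Enpep (-0.94) and Dpp4 (-0.59), among those that fell, are also genes of the proximal tubule brush border, whose 12 markers all fell (median -3.05), and the part of tubules in their falls was not tested. In this list 3 genes reached the minimum for testing only with or only without cisplatin. Of its other 17 genes 3 rose and 11 fell (median -0.72). A narrower podocyte list without the 7 held 17 tested genes, all of them already counted in the lists above. Of these 17 genes 3 rose and 10 fell (median -0.24, against 0.01 over all tested genes). Pla2r1 and Robo2 of that list reached the minimum only without cisplatin, which favoured a fall. Of its other 15 genes 3 rose and 9 fell (median -0.24). Set relative to that list, Nphs1 and Podxl had changes of 0.08 and 0.07 with the sign turned (adjusted p = 0.396 and 0.437), on a scale on which the median of all tested genes moved to 0.31, while Synpo, Wt1, Ptpro, Magi2 and Cdkn1c kept their direction and their call.

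**Figure D3:**
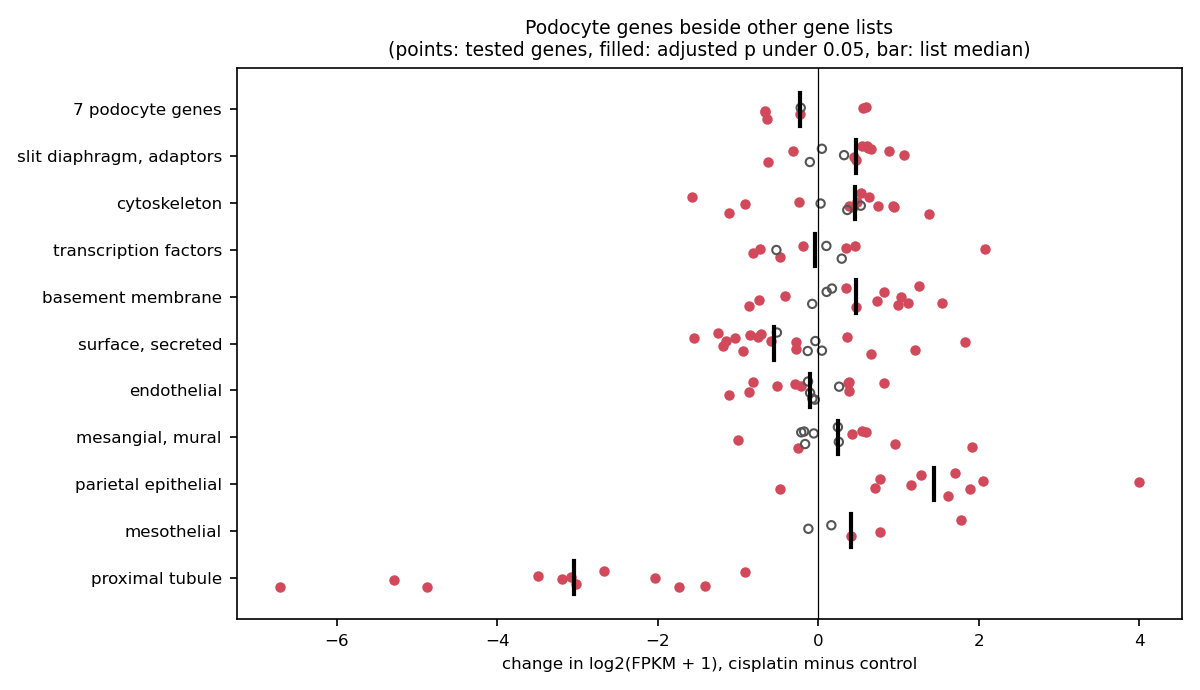
Change in log2(FPKM + 1) from control to cisplatin (horizontal axis) for every tested gene of 11 lists (rows), with calls filled and list medians as bars. The 7 podocyte genes spread on both sides of 0 with a median of -0.23, while all 12 proximal tubule genes lie below 0.

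PCN without cisplatin left the 7 genes close to control. The differences ran from -0.01 (Ptpro) to 0.09 (Wt1) in log2(FPKM + 1). None of the 7 passed limma's test, 0 had an unadjusted p under 0.05, and limma-voom also called 0. Over all tested genes the share called was 0%. The intervals bound what could be missed, from -0.27 to 0.26 for Ptpro, from -0.11 to 0.30 for Wt1 and from -0.08 to 0.25 for Magi2. They reached higher for Synpo (from -0.21 to 0.36) and Cdkn1c (from -0.26 to 0.31).

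With both drugs, compared with cisplatin alone, Ptpro was the 1 gene that rose, from 1.25 ± 0.391 to 2.10 ± 0.225 FPKM, a 1.68-fold difference of means (0.48 ± 0.12 in log2(FPKM + 1), limma adjusted p = 0.0281). Of all tested genes 7.97% rose in this comparison and 7.61% fell. The call was lost without cisplatin replicate 1 (0.0893) or 3 (0.0990), without cisplatin+PCN replicate 2 (0.0547) or 3 (0.0880), and when only the 6 libraries compared were fitted (0.142), a fit that called 1 gene in all against 2110. Over all alternatives its adjusted p ran from 0.000199 to 0.142. The groups did not overlap for Ptpro, Nphs1, Podxl and Magi2, 4 of 7 genes, where 29.4% of tested genes had no overlap. Nphs1 stood at 3.32 ± 0.386 and 4.25 ± 0.353 FPKM (adjusted p = 0.0619, and 0.0461 without cisplatin replicate 2). Podxl stood at 31.4 ± 1.91 and 36.6 ± 1.33 FPKM (0.108), and Cdkn1c at 5.53 ± 0.921 and 7.13 ± 1.14 FPKM (0.118, and 0.0390 without cisplatin replicate 2).

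Magi2, Wt1 and Synpo stayed near their cisplatin levels when PCN was added. Magi2 stood at 0.417 ± 0.0214 with cisplatin and 0.486 ± 0.0167 FPKM with both drugs (difference 0.07, interval from -0.09 to 0.23, limma adjusted p = 0.547). Wt1 stood at 2.63 ± 0.232 and 2.44 ± 0.167 FPKM (interval from -0.28 to 0.13), and Synpo at 10.3 ± 1.09 and 9.01 ± 0.623 FPKM (interval from -0.45 to 0.11). The test of whether PCN changed the cisplatin effect, the interaction, called 0 of the 7 genes by limma and by limma-voom, where 0.111% of all tested genes were called, and 1 of the 7 had an unadjusted p under 0.05. That gene was Ptpro (0.48 ± 0.17, adjusted p = 0.178, and 0.0266 without cisplatin replicate 2). Without that library the interaction called 1066 genes in all, against 15. An effect of PCN on the cisplatin response of any of the 7 genes was therefore not shown.

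In mice given PCN, cisplatin changed 4 of the 7 genes. Against PCN alone, Magi2 fell by 0.68 ± 0.07 (limma adjusted p = 3.58e-05) and Cdkn1c by 0.38 ± 0.13 (0.0328), and Wt1 rose by 0.39 ± 0.09 (0.00525) and Synpo by 0.34 ± 0.13 (0.0483). Among all tested genes 23.5% rose and 23.4% fell. The calls of Magi2 and Wt1 held in every alternative in which they were tested. That of Synpo was lost in 14 of 24 alternatives, among them with no filter (0.1004), without each PCN or cisplatin+PCN replicate in turn (0.0600 to 0.139), with median-of-ratios (0.0576) or quantile (0.0651) scaling, and without control replicate 2 (0.0642), cisplatin replicate 1 (0.0521) or cisplatin replicate 3 (0.0591). That of Cdkn1c was lost in 8 of 24, among them with limma-voom (0.126) and without PCN replicate 1 (0.0930) or 2 (0.0979) or cisplatin+PCN replicate 1 (0.111) or 3 (0.0725).

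Against control, the libraries with both drugs showed the same 4 calls, Synpo (0.42) and Wt1 (0.48) higher and Magi2 (-0.60) and Cdkn1c (-0.35) lower, where 23% of tested genes rose and 23.6% fell. This comparison shares its cisplatin+PCN libraries with the one against PCN and its controls with the one of cisplatin alone. Cdkn1c (adjusted p = 0.0452 in limma) lost its call in 13 of 24 alternatives, among them with limma-voom (0.146), and without control replicate 2 (0.161) or 3 (0.0718), PCN replicate 1 (0.0580), 2 (0.0576) or 3 (0.0510), cisplatin replicate 1 (0.0576), or cisplatin+PCN replicate 1 (0.149) or 3 (0.0929). Synpo (0.0208) lost its call without control replicate 2 (0.0525) or 3 (0.0746) or cisplatin+PCN replicate 2 (0.0698). Ptpro, at 2.10 ± 0.225 FPKM against 2.48 ± 0.355 in control, differed by -0.16 (interval from -0.43 to 0.11), Podxl by -0.01 (from -0.20 to 0.18) and Nphs1 by 0.06 (from -0.14 to 0.27).

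**Figure D4:**
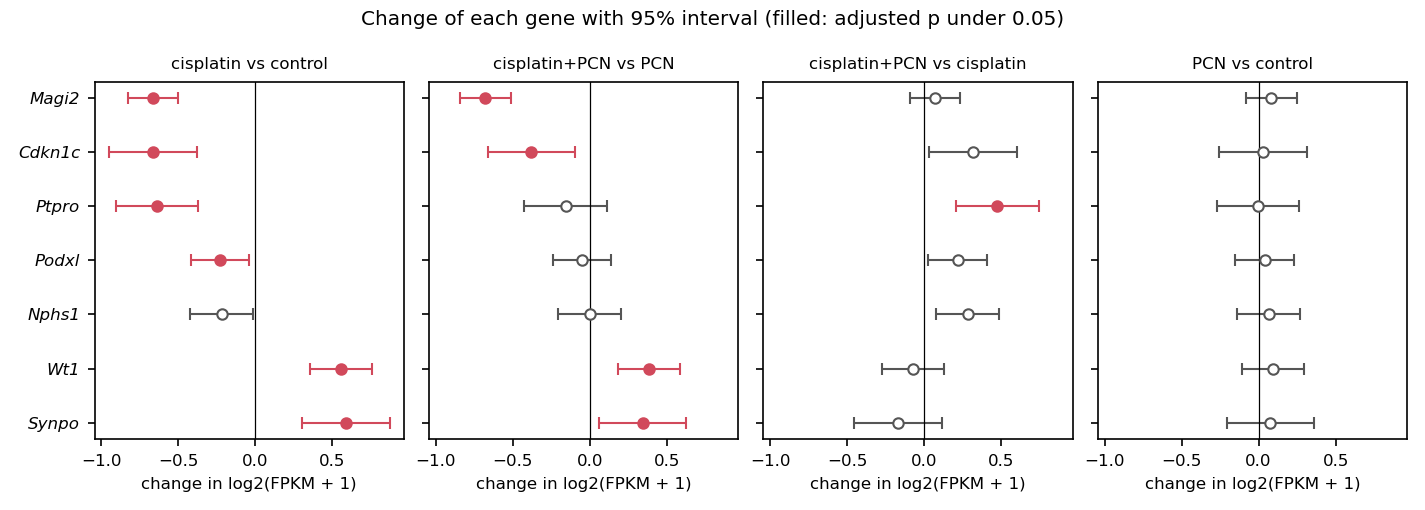
Change in log2(FPKM + 1) (horizontal axes) of each podocyte gene (rows) in 4 comparisons, with its 95% interval from limma; filled points passed at an adjusted p under 0.05. Magi2 lies near -0.66 and -0.68 in the 2 comparisons of cisplatin, and Ptpro is the 1 filled point between cisplatin+PCN and cisplatin.

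Other podocyte genes between cisplatin+PCN and cisplatin were mixed in direction, where 7.97% of all tested genes rose and 7.61% fell. In the narrower podocyte list 4 of 17 rose and 1 fell (median 0.08, against 0.00 over all tested genes), among them Arhgap24 (0.65), Clic5 (0.42) and Col4a4 (0.41) higher and Rhpn1 (-0.61) lower. Of 20 surface and secreted genes 6 rose, such as Vegfa from 25.4 to 32.2 FPKM, and 2 fell, Plat (-0.95) and Efnb1 (-0.36). Of 16 cytoskeletal genes 3 rose and 8 fell, Vim by 0.70 and Rhpn1, also in the narrower list, by 0.61. Of 15 basement membrane and adhesion genes 1 rose and 5 fell. Of 13 slit diaphragm and adaptor genes 0 rose and 1 fell, and of 10 transcription factors and cell-state genes 1 rose and 0 fell.

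The genes most like each podocyte gene over the 12 libraries, by Pearson's r of log2(FPKM + 1), are given as a description, since the libraries share 4 group means. For Wt1 the closest protein-coding gene was Kirrel (r = 0.979), the NEPH1 gene named above. For Synpo it was Mcam (0.952), for Ptpro Thnsl1 (0.972), for Cdkn1c Lilra5 (0.972) and for Magi2 Osbpl8 (0.997), with Lin7a, a scaffold gene, next (0.997). Magi2 had 1676 genes at an r of at least 0.9, against 933 for Wt1, 486 for Cdkn1c, 255 for Ptpro and 65 for Synpo. Nphs1 and Podxl had 0 such genes, and their closest were Scnn1g (0.891) and Dlg4 (0.896). Between the podocyte genes themselves r ran from -0.917 (Wt1 and Magi2) to 0.914 (Synpo and Wt1).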

How the data were processed

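FPKM were used as deposited by the authors, in a table of 52636 genes and 12 libraries. The submitters' processing notes list HISAT2 2.0.5, featureCounts 1.5.0-p3, DESeq2 1.16.1 and edgeR 3.18.1, without roles, and a mouse build; of 52403 genes matched to GENCODE M21 (GRCm38) 95.2% had identical coordinates, as had all 7 podocyte genes. FPKM times the deposited gene length gave whole reads in 100% of nonzero values (within 0.001). Groups came from library titles. Replicates differed by more than sampling noise.

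limma 3.58.1 (R 4.3.3) with an intensity trend was fitted to log2(FPKM + 1) for 13540 genes reaching FPKM 1 in 3 or more libraries, as 4 group means; p-values were two-sided and Benjamini-Hochberg adjusted over all tested genes within each of 6 comparisons. Intervals are 95%, unadjusted. The code was tested on simulated reads. The narrower podocyte list had 19 genes. Overlapping genes cannot be told apart without strand. Named genes were the 7, list members with the largest called changes, relatives and nearest profiles. The 7 genes and the lists were chosen with earlier results of these data known. Promoters came from RefSeq. Alternatives were other pseudocounts, no or a stricter filter, 4 other scalings, a replicate block, weights per array, a fit of the compared groups alone, voom on recovered reads, and each library left out.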

Additional observations from a re-analysis of the deposited data

How the results depend on the processing

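Across 24 alternatives, 865 gene-level values kept direction and side of the threshold, and 43 changed sign. In all 57 lost a call and 14 gained one, each of these counts including 1 with a sign change. Magi2 and Wt1 kept their calls against both groups without cisplatin wherever tested. The number of podocyte genes called with cisplatin, 6, was 3 at a mean FPKM of at least 5, which leaves 3 of the 7 tested. Between cisplatin+PCN and cisplatin, 1 became 0 with no filter, at mean FPKM 5 and with only the groups compared, 3 with array weights (whose estimation stopped before convergence) and 2 with the replicate block, which added Cdkn1c (adjusted p = 0.0495 in limma). Against PCN, 4 became 2 with no filter and at mean FPKM 5, and 3 as Synpo was lost with the replicate block (adjusted p = 0.0508), pseudocount 0.1 (0.0509), median-of-ratios or quantile scaling, or Cdkn1c with rescaling (0.0949) or limma-voom (0.126); podocyte reference scaling lost Cdkn1c (0.345) and gained Nphs1. Against control, 4 became 2 at mean FPKM 5 and with only the groups compared, and 3 as Cdkn1c was lost with no filter (0.0956), rescaling (0.121) or limma-voom (0.146); podocyte reference scaling lost it (0.337) and gained Nphs1 (0.0164). The interaction went from 0 to 2 with array weights. Leaving out each library gave 0 to 3, 2 to 4, 2 to 4 and 0 to 1 for these 4 comparisons, and 5 to 7 for cisplatin against control. The replicate block left 6 called there. Same-numbered libraries had an r over 0.1 in 4 of 18 pairs, so the numbers were not taken to pair them.

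Sign changes in log2(FPKM + 1) were as follows. Podocyte reference scaling gave 0.078 (Nphs1) and 0.069 (Podxl) for cisplatin against control, 0.23 (Nphs1, adjusted p = 0.0285 in limma), 0.18 (Podxl) and 0.072 (Ptpro) for cisplatin+PCN against PCN, 0.19 (Podxl) and 0.034 (Ptpro) against control, -0.033 (Magi2) against cisplatin and -0.0049 (Cdkn1c) for PCN against control. It moved the median of all genes to 0.31, 0.23, 0.20 and -0.10 in these first 4 comparisons, and the share of higher calls from 50.1% to 75.4%, 50.03% to 79.5%, 49.3% to 75.9% and 51.1% to 23.1%. Rescaling without the 50 highest and mitochondrial genes gave 0.044 (Nphs1) and 0.0062 (Podxl) against PCN and 0.041 (Podxl) against control, and limma-voom 0.099, 0.049 and 0.078. Quantile normalization gave 0.025 (Podxl, against control) and -0.083 (Magi2, against cisplatin). For PCN against control, Ptpro was at 0.0021 with median-of-ratios and 0.0198 with array weights, and Cdkn1c at -0.011 with array weights. The Magi2 interaction was 0.045 with pseudocount 0.1, 0.024 with array weights and 0.077 with limma-voom.

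Without single libraries, PCN against control ran from -0.014 to 0.12 (Nphs1), -0.062 to 0.096 (Podxl), -0.071 to 0.23 (Synpo), -0.088 to 0.058 (Ptpro) and -0.033 to 0.12 (Cdkn1c). Cisplatin+PCN ran from -0.056 to 0.040 against PCN (Nphs1), and from -0.016 to 0.12 (Nphs1) and -0.11 to 0.047 (Podxl) against control. The Magi2 interaction ran from -0.043 to 0.0096. Over all genes, calls between cisplatin+PCN and cisplatin, 2110, were 1008 with no filter, 1 with only the groups compared, 6862 with array weights and 580 to 3390 without single libraries (580 without cisplatin replicate 3). Interaction calls, 15, were 30 at mean FPKM 5, 23 after rescaling, 68 with limma-voom, 4315 with array weights, 1066 without cisplatin replicate 2 and 493 without cisplatin+PCN replicate 2. At mean FPKM 5, 5197, 4031 and 4000 genes were called with cisplatin, against PCN and against control, from 8649, 6352 and 6308; array weights called 9555 against PCN. PCN against control called 0 genes, and 2 with no filter. Values from limma-voom are on the log2 scale of read counts. Causes were not tested.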

Other observations

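Within groups, most pairs of the podocyte genes deviated in the same direction. After each group's mean was subtracted, 17 of the 21 pairs among the 7 genes had a Pearson's r above 0 over the 12 libraries (median 0.268), from -0.14 for Synpo and Magi2 to 0.904 for Podxl and Wt1. Control replicate 3 lay below its group mean in all 7 genes (median deviation -0.17 in log2(FPKM + 1)), as did cisplatin replicate 1 (-0.04), while control replicate 2 lay above it in 6 of 7 (0.05). Podxl and Wt1, which moved oppositely with cisplatin, had an r of -0.338 before the group means were subtracted. The pairs share libraries and so are not independent, and no test was made. The same share over pairs of all tested genes was not computed, so these values do not set the podocyte genes apart.

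Of the protein-coding genes closest to the mean profile of the 7 after that subtraction, Mogat2 (r = 0.970), Dlg4 (0.957), Fyn (0.912) and Faf2 (0.910) came first. Fyn encodes a kinase that phosphorylates nephrin. Dlg4, which encodes the PSD-95 scaffold, was also first for the mean profile before the subtraction (0.944), at 1.10 FPKM in control, 0.750 with cisplatin and 1.12 with cisplatin+PCN. Tnxb (0.907) and Slc26a6 (0.905) followed. Since the 7 genes changed in both directions with cisplatin, part of that change cancels in their mean.

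Markers of cells next to the podocyte gave mixed counts with cisplatin, where 32% of all tested genes rose and 31.9% fell. Of 13 tested genes of mesangial cells, pericytes and smooth muscle 5 rose and 2 fell (median 0.24), with Serpine2 at 1.91 and Mcam at 0.96. Ptn was lower, at 1.57 FPKM in control and 0.288 with cisplatin. It reached the minimum for testing only in libraries without cisplatin, which favoured a fall. Of the other 12 genes 5 rose and 1 fell (median 0.25). Of 7 tested fibroblast genes 4 rose, among them Pdgfra and Dcn (1.06 and 1.07), and Tcf21, a factor of podocytes too, was the 1 that fell (-0.82).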
